A study of Homo sapiens with 24 samples.

Results

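Tight junctions and desmosomes are the contacts that hold epithelial sheets together, and the chromatin at the start sites of 37 human genes that build them was followed in PANC-1 cells, a line from a human pancreatic ductal carcinoma. The genes were taken by name, not by any measured value: 26 encode tight junction proteins (17 claudins, OCLN, MARVELD2, MARVELD3, TJP1, TJP3, CGN, PATJ, F11R and CRB3) and 11 encode desmosome proteins (DSG1, DSG2, DSG3, DSC1, DSC2, DSC3, DSP, JUP, PKP1, PKP2 and PKP3). They are 37 of 20136 protein-coding genes that were measured in the same way. For each gene, all bases within 5 kb of any of its annotated transcription start sites (TSSs) in build hg19 were taken as its window, and the number of those bases (bp) lying under called peaks was counted in each of 18 lists of chromatin immunoprecipitation sequencing (ChIP-seq) peaks.

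In a tight junction, claudins and the MARVEL-domain proteins occludin (OCLN), tricellulin (MARVELD2) and MARVELD3 cross the membrane near the apical border and seal the gap between neighbouring cells, while ZO-1 (TJP1), ZO-3 (TJP3), cingulin (CGN) and PATJ form the scaffold beneath them. In a desmosome, the cadherins named desmogleins and desmocollins bridge the cells, and plakoglobin (JUP), plakophilins and desmoplakin (DSP) tie them to keratin filaments. Epithelial-mesenchymal transition (EMT), which TGFβ can induce, is known for the loss of such contacts, in part through repressors that bind the E-box letters CACCTG or CAGGTG. H3K4me3 marks the start sites of active or poised genes, H3K27ac marks active promoters and enhancers, and H3K27me3 is laid down by Polycomb at silent or poised genes. PHF13 is a chromatin protein with a PHD finger that binds H3K4me3.

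The 3 groups were cells given a control siRNA without TGFβ (siControl), the same siRNA followed by TGFβ at 10 ng/ml for 48 h (siControl+TGFβ), and siRNA against PHF13 followed by the same TGFβ treatment (siPHF13+TGFβ). All groups were therefore transfected cells of 1 line, and no group had siPHF13 without TGFβ. Each mark had 2 lists per group, 6 per mark. Nothing in the labels says that the 2 came from separate cultures, so the spread between them may be technical. The H3K4me3 lists held 27869 to 39202 peaks, the H3K27ac lists 6004 to 36104 and the H3K27me3 lists 59573 to 165717. The peak files give no read totals, and read totals are not used here. The shortest list of every mark was siPHF13+TGFβ replicate 1, with 6004 H3K27ac peaks against 32403 in replicate 2, and the sums and counts between groups are also given without it. A second point bears on every direction between the TGFβ groups. The peak names inside the 6 lists labelled siPHF13+TGFβ carry NCT, the study's abbreviation for the control siRNA with TGFβ, while the 6 lists labelled siControl+TGFβ carry 3AT. The study's own table of peak numbers assigns these lists to conditions as the sample labels do, and the groups below follow the labels. That table gives longer lists than those used here for siPHF13+TGFβ replicate 1 of each mark, so it does not settle the point. If the labels were exchanged, every difference between the TGFβ groups would change sign, and the comparison with siControl would belong to the other group. Among ductal markers, KRT8, KRT18, KRT19 and SOX9 had H3K4me3 in all 6 lists and KRT7 had it in 1. Of 10 measured markers of other cell types, 0 had H3K4me3 in 4 or more lists.

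The canonical promoters of 7 genes are shown here. CLDN4, CLDN14, OCLN, F11R and CGN had some of the largest H3K4me3 or H3K27ac differences among genes whose groups do not overlap in a comparison. DSP and CRB3 are genes under H3K27me3. Each sequence runs 5′ to 3′ on the gene's own strand, from 270 bases before the canonical TSS through the first 30 bases of the transcript. It was read from the GRCh37 (hg19) sequence. Capitals mark the E-box letters CACCTG or CAGGTG, which are reverse complements of each other, so a search for both letters covers both strands.
CLDN4: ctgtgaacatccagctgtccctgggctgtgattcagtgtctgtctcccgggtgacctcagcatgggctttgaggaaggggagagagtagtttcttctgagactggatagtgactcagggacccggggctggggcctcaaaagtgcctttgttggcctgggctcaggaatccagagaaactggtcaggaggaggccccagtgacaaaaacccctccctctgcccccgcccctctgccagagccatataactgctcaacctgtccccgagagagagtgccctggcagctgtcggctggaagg
CLDN14: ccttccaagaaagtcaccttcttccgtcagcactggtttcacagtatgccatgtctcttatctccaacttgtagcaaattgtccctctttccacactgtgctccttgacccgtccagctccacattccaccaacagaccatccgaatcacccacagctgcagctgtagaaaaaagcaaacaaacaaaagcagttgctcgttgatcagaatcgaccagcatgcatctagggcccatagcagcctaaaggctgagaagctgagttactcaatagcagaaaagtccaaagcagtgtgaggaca
OCLN: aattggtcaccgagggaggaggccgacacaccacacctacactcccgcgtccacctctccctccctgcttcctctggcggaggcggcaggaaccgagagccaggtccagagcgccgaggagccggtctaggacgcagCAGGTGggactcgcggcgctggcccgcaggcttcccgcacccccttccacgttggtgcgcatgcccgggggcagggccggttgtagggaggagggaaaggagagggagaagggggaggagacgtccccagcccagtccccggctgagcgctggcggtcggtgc
F11R: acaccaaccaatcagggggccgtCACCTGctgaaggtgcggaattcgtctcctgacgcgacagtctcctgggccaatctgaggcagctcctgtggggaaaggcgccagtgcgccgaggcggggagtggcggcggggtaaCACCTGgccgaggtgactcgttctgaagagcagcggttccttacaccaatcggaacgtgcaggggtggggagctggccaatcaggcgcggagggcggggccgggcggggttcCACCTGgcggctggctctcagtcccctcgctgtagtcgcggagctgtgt
CGN: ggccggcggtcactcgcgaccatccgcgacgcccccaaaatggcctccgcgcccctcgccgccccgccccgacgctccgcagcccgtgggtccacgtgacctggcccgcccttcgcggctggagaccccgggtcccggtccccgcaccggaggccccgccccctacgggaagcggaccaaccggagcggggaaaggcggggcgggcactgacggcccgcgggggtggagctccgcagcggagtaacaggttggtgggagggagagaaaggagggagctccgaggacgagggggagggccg
DSP: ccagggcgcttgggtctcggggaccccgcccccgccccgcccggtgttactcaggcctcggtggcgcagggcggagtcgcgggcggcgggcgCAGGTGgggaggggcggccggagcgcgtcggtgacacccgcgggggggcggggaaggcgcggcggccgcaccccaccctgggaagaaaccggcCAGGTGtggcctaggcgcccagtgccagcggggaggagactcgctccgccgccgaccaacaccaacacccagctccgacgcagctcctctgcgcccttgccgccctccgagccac
CRB3: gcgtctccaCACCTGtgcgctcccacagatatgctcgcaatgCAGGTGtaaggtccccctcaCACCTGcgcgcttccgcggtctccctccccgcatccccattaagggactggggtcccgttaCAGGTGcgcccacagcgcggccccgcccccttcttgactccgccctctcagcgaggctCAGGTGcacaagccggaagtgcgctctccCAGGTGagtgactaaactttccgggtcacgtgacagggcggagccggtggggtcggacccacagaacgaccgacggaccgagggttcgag

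The sequences lie at chr7:73245056-73245355 (CLDN4, plus strand), chr21:37852391-37852690 (CLDN14, minus), chr5:68788347-68788646 (OCLN, plus), chr1:160990913-160991212 (F11R, minus), chr1:151483593-151483892 (CGN, plus), chr6:7541634-7541933 (DSP, plus) and chr19:6464012-6464311 (CRB3, plus). CRB3, a small apical polarity protein of the Crumbs family, held 6 E-boxes, F11R (junctional adhesion molecule A) 3, DSP 2 and OCLN 1. CLDN4, CLDN14 and CGN held 0. Over all 37 promoters of this length, 16 (43.2%) had at least 1 E-box, against 20.4% of 20132 coding promoters, and the share was 42.9% both in the 21 with H3K4me3 over them in all 6 lists and in the 14 with H3K4me3 over them in 0 lists. The marks over these 300 bases separated the genes in another way. H3K4me3 lay over the promoters of OCLN, F11R, CGN and DSP in 6 of 6 lists, and H3K27me3 also lay over that of DSP in 6 of 6. The CRB3 promoter was under H3K27me3 in 5 lists and under H3K4me3 in 0. That of CLDN4 was under H3K4me3 in 3 lists and under H3K27ac in 1. The CLDN14 promoter was under none of the 3 marks in any list, so its peaks lay outside the sequence shown. The ratio of observed to expected CpG had a median of 0.75 in the promoters with H3K4me3 in all 6 lists and 0.38 in those with none, against 0.76 over all coding promoters. DSP (0.84) and CGN (0.89) were on the high side, and CLDN4 (0.19) and CLDN14 (0.31) on the low side.

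Most of the genes carried H3K4me3 in every list, and fewer carried H3K27ac or H3K27me3. An H3K4me3 peak lay in the window of 27 of the 37 genes in all 6 lists (73.0%, against 72.5% of coding genes), of CLDN5, CLDN14 and TJP3 in some lists, and of CLDN8, CLDN9, CLDN18, CLDN19, DSG1, DSG3 and DSC1 in none. H3K27ac was present in 4 or more lists at 14 genes (37.8%, against 56.2% of coding genes) and absent from every list at 18 (48.6%, against 35.4%). H3K27me3 was present in 4 or more lists at 13 genes (35.1%, against 33.8%). These shares are descriptions of the chosen genes, and their differences from all coding genes were not tested. DSG1, DSG3 and DSC1, cadherins known from stratified epithelium, and CLDN8, CLDN9 and CLDN19 had no peak of any mark in the 18 lists.

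**Figure D1:**
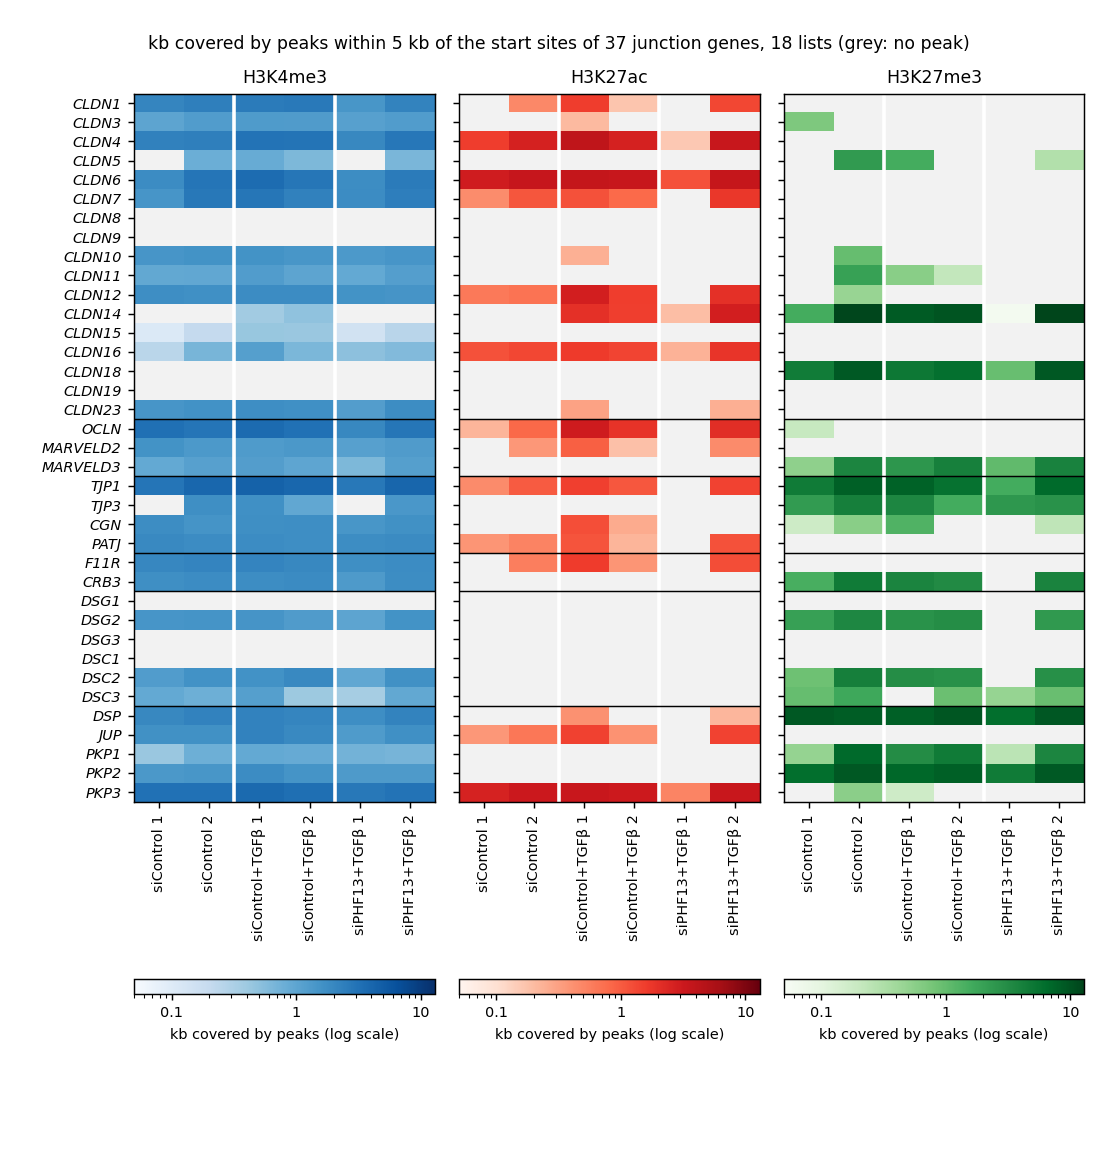
Each row is 1 of the 37 genes, ordered by role, each column 1 of the 6 lists of a mark, and the colour gives the kb within 5 kb of the gene's start sites that peaks cover, on a log scale (grey: no peak). H3K4me3 fills 27 rows in all 6 lists, H3K27ac is empty for the 6 desmosomal cadherins, and the fifth H3K27ac column, siPHF13+TGFβ replicate 1, has peaks at 5 genes.

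By role the counts were as follows, and no difference between roles was tested. Of all coding genes, 75.0% had H3K4me3 in 4 or more lists, 56.2% had H3K27ac and 33.8% had H3K27me3. Among the 17 claudins, 12 had H3K4me3 in 4 or more lists, 7 had H3K27ac (CLDN1, CLDN4, CLDN6, CLDN7, CLDN12, CLDN14 and CLDN16) and 2 had H3K27me3 (CLDN14 and CLDN18). Among the 11 desmosome genes, 8 had H3K4me3 in 4 or more lists, 2 had H3K27ac (JUP and PKP3) and 6 had H3K27me3 (DSG2, DSC2, DSC3, DSP, PKP1 and PKP2). The 6 desmosomal cadherins had no H3K27ac peak in any list, also in the longest, which held 36104 peaks. All 5 genes of the desmosomal plaque had H3K4me3 in all 6 lists. Of the 26 tight junction genes, 12 had H3K27ac in 4 or more lists and 7 had H3K27me3. Of the 37 genes, TJP1 and CLDN14 had both in 4 or more lists (5.4%, against 8.3% of coding genes), and in both genes the marks sat at different start sites, as described below.

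Read in both lists of a group, the combinations were as follows. In siControl, 9 genes had H3K4me3 with H3K27ac (24.3%, against 43.5% of coding genes): CLDN4, CLDN6, CLDN7, CLDN12, CLDN16, OCLN, JUP, PKP3 and PATJ. Another 9 had H3K4me3 with H3K27me3 (24.3%, against 14.2%): MARVELD3, DSP, PKP1, PKP2, DSG2, DSC2, DSC3, CGN and CRB3. A further 8 had H3K4me3 alone, TJP1 had all 3 marks, and CLDN14, CLDN18 and TJP3 had H3K27me3 alone. In siControl+TGFβ, 13 genes had H3K4me3 with H3K27ac (35.1%, against 48.5% of coding genes), now with CLDN1, F11R, MARVELD2 and CGN. There 9 had H3K4me3 with H3K27me3 (24.3%, against 13.6%). In siPHF13+TGFβ the first number was 4 (10.8%, against 19.8% of coding genes): CLDN4, CLDN6, CLDN16 and PKP3. This count was bounded by the 5 genes with any H3K27ac peak in replicate 1. In siPHF13+TGFβ replicate 2 alone, 16 genes had an H3K27ac peak (43.2%, against 62.4% of coding genes).

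Of the genes with H3K4me3 and H3K27ac in siControl, CLDN7, CLDN12, OCLN, JUP, PKP3 and PATJ had H3K27ac over an own start site in 3 or more lists. The nearest H3K27ac peak lay 51 bp from a start site at CLDN4 and 823 bp at CLDN16. PKP3 (plakophilin 3, chr11:392614-404908) is an armadillo protein of the desmosomal plaque. Its H3K27ac peaks covered 2652 and 3168 bp for siControl, 3344 and 3100 bp for siControl+TGFβ, and 503 and 3370 bp for siPHF13+TGFβ. The 5 longer lists lay within 1 narrow range and siPHF13+TGFβ replicate 1 stood below it. The strongest of these peaks ranked in the top 1.27 to 12.2% of its list by significance, with a fold enrichment over input of 5.81 to 8.54. H3K4me3 at PKP3 covered 3201, 3213, 3712, 3333, 2759 and 3083 bp in the same order of lists, and both siControl+TGFβ values were above all others. The window of PKP3 also holds a start site of SIGIRR. CLDN4 (chr7:73213872-73247020), a claudin of simple epithelia, had H3K27ac over 1578 and 2701 bp, 3953 and 2670 bp, and 158 and 3392 bp, with overlap between all groups. At CLDN6 (chr16:3064713-3070072) the H3K27ac values were 2935 and 3516, 3688 and 3398, and 1153 and 3567 bp, but its window holds start sites of HCFC1R1, THOC6 and TNFRSF12A, and no H3K27ac peak lay over a CLDN6 start site in any list. CLDN7 (chr17:7163222-7167302) had 442 and 1072, 1148 and 796, and 0 and 1746 bp of H3K27ac. Its H3K4me3 covered 1470 and 2759, 2853 and 2274, and 1819 and 2409 bp, and the groups overlapped in both marks.

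The plaque genes DSP and PKP2 had wide H3K27me3 in all 6 lists. DSP (desmoplakin, chr6:7541571-7586947) links plakoglobin and plakophilins to keratin. Its H3K27me3 peaks covered 9121 and 8416 bp for siControl, 8055 and 9392 bp for siControl+TGFβ, and 6195 and 9226 bp for siPHF13+TGFβ of a window of 10334 bp. Its H3K4me3 covered 1987 and 2192, 2203 and 2096, and 1756 and 2174 bp. The groups overlapped in both marks. The 2 marks shared sequence: of the DSP bases under H3K4me3 in both lists of a group, H3K27me3 in both lists covered 100% in siControl (1950 bp), 100% in siControl+TGFβ (2055 bp) and 52.0% in siPHF13+TGFβ (913 bp). The last value rests on replicate 1, since in siPHF13+TGFβ replicate 2 alone the share was 100% of 2174 bp. H3K27ac at DSP was called in 2 lists only, over 411 bp in siControl+TGFβ replicate 1 and 218 bp in siPHF13+TGFβ replicate 2. PKP2 (plakophilin 2, chr12:32943679-33049732) had H3K27me3 over 6193 and 9054, 6933 and 8051, and 4677 and 8881 bp. Its H3K4me3 covered 1361 and 1429, 1805 and 1534, and 1302 and 1310 bp. Its H3K4me3 bases were covered to 100% by H3K27me3 in each of the 3 groups. The strongest H3K27me3 peak at PKP2 ranked in the top 0.635 to 9.37% of each list. Across the 37 genes, 6 shared bases between H3K4me3 and H3K27me3 in siControl (16.2%, against 10.3% of coding genes), 9 in siControl+TGFβ (24.3%, against 12.7%) and 4 in siPHF13+TGFβ (10.8%, against 6.82%). In siPHF13+TGFβ replicate 2 alone the number was 7 (18.9%, against 14.1%), while single lists of the other groups had 7 to 10. Peaks come from a population of cells, so shared bases do not show that 1 molecule carried both marks.

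Among the cadherins, DSG2 (desmoglein 2, chr18:29078140-29128971) and DSC2 (desmocollin 2, chr18:28638806-28682485) are the pair made by simple epithelia. H3K27me3 at DSG2 covered 2029 and 3483, 2748 and 3041, and 0 and 2384 bp, and its strongest peak ranked in the top 0.317 to 0.958% of the 5 lists that had one, the highest rank that this mark reached at any of the 37 genes. No H3K27me3 peak lay over a DSG2 start site, the nearest lying 21 bp from one. H3K4me3 at DSG2 covered 1472 and 1542, 1483 and 1251, and 1002 and 1550 bp. At DSC2 the H3K27me3 values were 868 and 4171, 3050 and 2829, and 0 and 2844 bp, and those of H3K4me3 were 1230 and 1602, 1609 and 1955, and 945 and 1639 bp. The lowest list was siPHF13+TGFβ replicate 1 for both marks of both genes. DSC3 had H3K4me3 in 6 lists over 352 to 1151 bp and H3K27me3 in 5. CLDN18 (chr3:137717577-137752497), known from stomach and lung, had H3K27me3 over 4499 and 8948, 4979 and 5908, and 958 and 9123 bp, with no H3K4me3 or H3K27ac peak. PKP1, TJP3 and MARVELD3 had H3K27me3 in 6 lists each, over 248 to 6681, 1578 to 4201 and 531 to 4065 bp. CRB3 had it in 5 lists, over up to 4598 bp, and CGN in 4, over up to 1315 bp. The H3K4me3 of the CRB3 window, 1325 to 1876 bp, lay at least 2758 bp from any CRB3 start site, near SLC25A23.

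At TJP1 and CLDN14 the start sites of 1 gene differed in their marks. TJP1 (ZO-1, chr15:29991571-30261118, minus strand) has a most 5′ start site at position 30261118, where H3K27me3 covered 4641, 7910, 7661, 5617, 1550 and 6589 bp in the 6 lists, with 662 to 1505 bp of H3K4me3 and no H3K27ac. The window of its 6 start sites from position 30114706 on, the canonical one among them, had 1863 to 2888 bp of H3K4me3 and no H3K27me3 in any list. H3K27ac there covered 458 and 996 bp for siControl, 1494 and 1054 bp for siControl+TGFβ, and 0 and 1439 bp for siPHF13+TGFβ. All of the H3K27me3 of TJP1 thus lay at the distal start site and all of its H3K27ac at the canonical group. CLDN14 (chr21:37832919-37948867, minus strand) showed the same arrangement. Over all its start sites H3K27me3 covered 1537 and 12445 bp for siControl, 8740 and 9745 bp for siControl+TGFβ, and 59 and 12637 bp for siPHF13+TGFβ. Its H3K27me3 lay in the windows of the start sites at 37948867 (59 to 7085 bp) and 37914898 (0 to 6595 bp), and its H3K4me3 and most of its H3K27ac lay in that of the canonical start site at 37852420, where no list had H3K27me3.

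**Figure D2:**
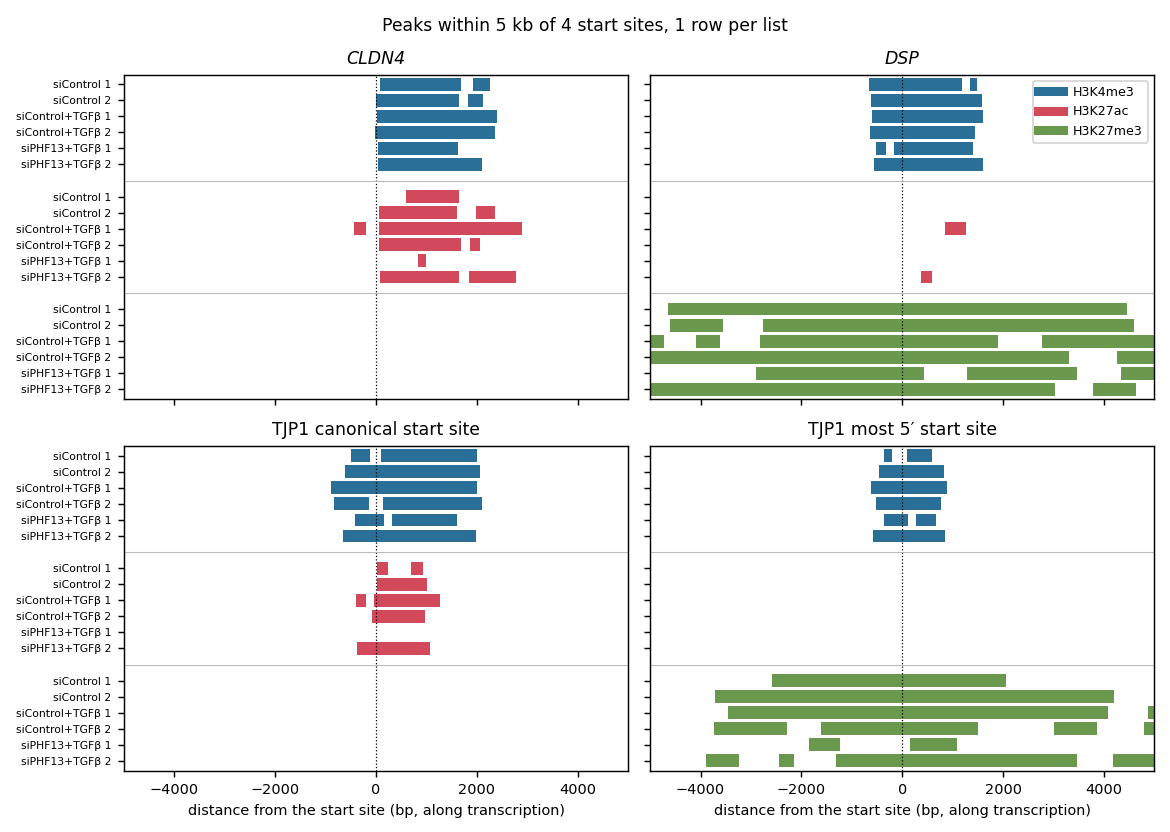
The 4 panels show peaks within 5 kb of a start site of CLDN4, of DSP and of TJP1 (its canonical and its most 5′ start site), with distance in bp along the direction of transcription on the horizontal axis and 1 row per list for each mark. H3K27me3 spans the DSP start site in all 6 lists and the most 5′ start site of TJP1 in 5, and has no peak at CLDN4 or at the canonical start site of TJP1.

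TGFβ in control cells, the first comparison, was accompanied by wider H3K27ac and slightly wider H3K4me3 at these genes. The H3K4me3 and H3K27ac lists of that group were also longer than those of siControl, and the part of list length in these values was not tested. Summed over the 37 genes, H3K4me3 covered 42902 and 50594 bp for siControl (mean 46748 ± 5439, SD, n = 2) and 57267 and 51363 bp for siControl+TGFβ (54315 ± 4175, SD, n = 2). The log2 ratio of the means was 0.22, against 0.15 for all windows. H3K27ac covered 10811 and 16856 bp (13834 ± 4274, SD, n = 2) and 32076 and 18946 bp (25511 ± 9284, SD, n = 2), a log2 ratio of 0.88 against 0.66 for all windows. In both marks each siControl+TGFβ list was above each siControl list. With all lists cut to their strongest peaks at the length of the shortest, the H3K27ac ratio was 0.19, against 0.45 for all windows. H3K27me3 covered 35651 and 82125 bp (58888 ± 32862, SD, n = 2) and 58772 and 59303 bp (59038 ± 375, SD, n = 2), a difference far inside the spread of the siControl lists. An exact permutation test of 2 lists against 2 cannot give a p below 0.333, so no such test is reported for a sum or for a single gene.

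**Figure D3:**
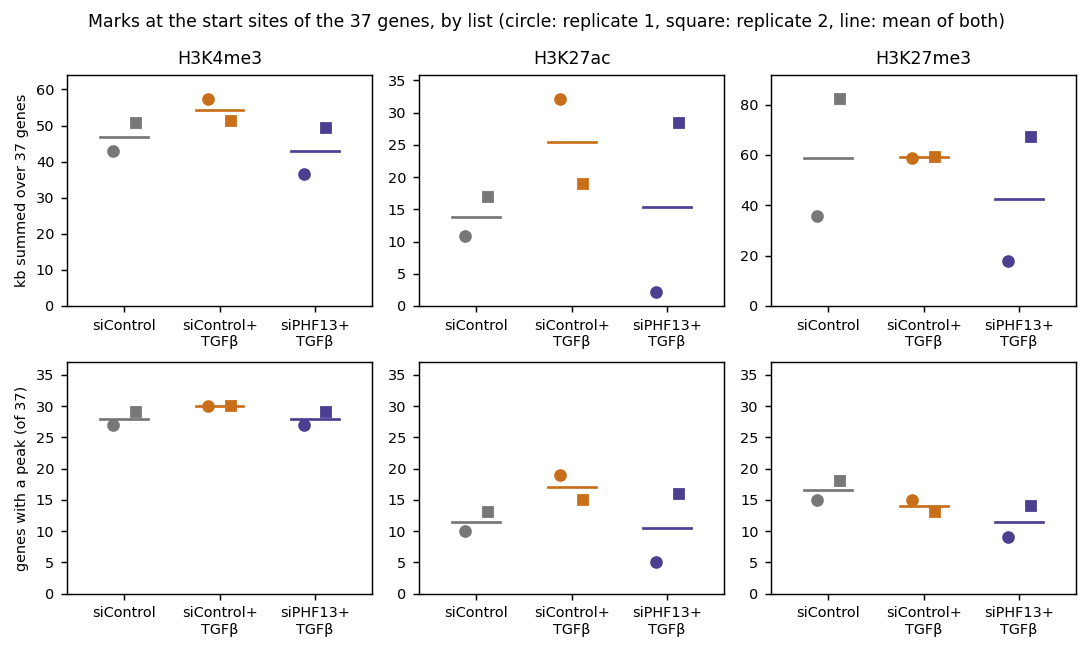
The upper panels give the kb covered by peaks summed over the 37 genes and the lower panels the number of the 37 genes with a peak, for each of 2 lists per group (circle: replicate 1, square: replicate 2) with the mean of both as a line. The siControl+TGFβ lists lie above the siControl lists for H3K4me3 and H3K27ac, and siPHF13+TGFβ replicate 1 has the lowest sum of all 3 marks.

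Gene by gene, groups were said not to overlap when both lists of one lay above both lists of the other. For H3K4me3, 30 of the 37 genes had a peak in at least 2 of 6 lists and were compared. Of these, 13 were higher in siControl+TGFβ than in siControl without overlap and 0 were lower, beside 47.3% higher and 2.1% lower over all 15398 windows compared. After each list was centred on its own median, the numbers were 8 higher and 6 lower, beside 16.7% and 17.7%. Fitted across all windows with limma, 0 of the 30 passed a Benjamini-Hochberg adjusted p of 0.05 with 6 windows of 15398 higher (0.039%). An unadjusted p under 0.05 was found at 2 of the 30 and at 3.25% of windows. For H3K27ac, 6 of 17 genes compared were higher and 0 lower, beside 55.7% and 0.0561% of 12488 windows, and after centring 4 were higher and 3 lower, beside 27.6% and 9.97%. limma called 0 of these 17 (0% of windows) and had 1 with an unadjusted p under 0.05, beside 0.488% of windows. For H3K27me3, 0 of 16 were higher and 1 was lower, beside 6.41% and 7.24% of 8257 windows. limma called 0 of these 16 (0% of windows), with 0 at an unadjusted p under 0.05, beside 1.19% of windows. Leaving out 1 list, which loosens the criterion, raised the H3K4me3 number to 22 without siControl+TGFβ replicate 2 or siControl replicate 2, beside 71.6% and 75.7% of windows, and the H3K27ac number to 17 and 14 without the same lists, beside 97.9% and 84.9%. For H3K27me3 the direction rested on which siControl list was kept, with 13 of 16 genes lower with TGFβ without siControl replicate 1, beside 72.4% of windows, and 10 of 16 higher without siControl replicate 2, beside 64% of windows. The median difference of the genes on the log2(bp + 200) scale was 0.18 for H3K4me3 (0.12 for all windows), 0.72 for H3K27ac (0.53) and 0.01 for H3K27me3 (0.08).

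The largest of these differences was at CLDN14, a claudin of the kidney and inner ear. H3K4me3 covered 0 and 0 bp for siControl, 375 and 489 bp for siControl+TGFβ, and 0 and 0 bp for siPHF13+TGFβ. H3K27ac covered 0 and 0, 1996 and 1514, and 190 and 2826 bp. Both marks were thus called in both siControl+TGFβ lists and in neither siControl list, while siPHF13+TGFβ had H3K27ac but no H3K4me3. On the log2(bp + 200) scale the H3K4me3 difference between siControl+TGFβ and siControl was 1.65 ± 0.11 (limma SE, adjusted p = 0.0626), and it passed the threshold only with a pseudocount of 50 bp (adjusted p = 0.00747). Over the alternatives its adjusted p ran from 0.00747 to 0.893. A size set against lists at 0 depends on that pseudocount. CLDN14 also met the filter of a peak in at least 2 lists only through the siControl+TGFβ lists, where it was high. Its SE and p values are therefore no support for a change. The H3K4me3 peaks were among the weaker ones, ranking at 74.3 and 78.4% of their lists, lay 1149 bp or more from a CLDN14 start site, and were gone in the lists cut to equal length. The H3K27ac difference was 3.28 ± 1.19 (limma SE, adjusted p = 0.977).

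Wider H3K4me3 without overlap was also seen at CLDN15, PKP1, CLDN4 and 9 more genes. CLDN15 had 108 and 203 bp for siControl, 438 and 424 bp for siControl+TGFβ, and 147 and 251 bp for siPHF13+TGFβ, a difference of 0.84 between the first groups, with no peak nearer than 4626 bp to a start site. The widest of the CLDN15 peaks spanned 1836 bp, so the window held only the edge of it. The difference was gone in windows of 2.5 and 1 kb. PKP1 (plakophilin 1) had 428 and 780, 900 and 871, and 711 and 685 bp, a difference of 0.47. CLDN4 had 2238 and 2342, 3048 and 2977, and 2002 and 2801 bp, a difference of 0.37. At each of these genes the siControl+TGFβ pair was the highest of the 3 groups. JUP (plakoglobin, chr17:39910856-39943183), shared by desmosomes and adherens junctions, had 1649 and 1648, 2224 and 1928, and 1284 and 1664 bp, a difference of 0.30. JUP, PKP2 and CLDN23 were higher without overlap under all 9 other settings of window, peak strength and scaling. The H3K4me3 groups did not overlap at CLDN1 either, a claudin of most epithelia, with 2055 and 2347, 2574 and 2670, and 1443 and 2166 bp, but they overlapped once lists were cut to equal length.

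For H3K27ac the 6 genes were CLDN14, CGN, OCLN, CLDN12, TJP1 and CLDN16. CGN (cingulin, chr1:151482986-151511168), a cytoplasmic plaque protein, had 0 and 0 bp for siControl, 1209 and 265 bp for siControl+TGFβ, and 0 and 0 bp for siPHF13+TGFβ, a difference of 2.02 from siControl on the log2(bp + 200) scale. CGN was compared only because both siControl+TGFβ lists had a peak, so its lack of overlap is no support for a change. OCLN (occludin, chr5:68788119-68853931) had 222 and 813, 3009 and 1841, and 0 and 2079 bp, a difference of 1.97. CLDN12 (chr7:90013035-90142716) had 619 and 687, 2785 and 1551, and 0 and 2006 bp, a difference of 1.42. At each of these 3 genes the siControl+TGFβ lists exceeded those of siControl, and the siPHF13+TGFβ lists were either both at 0 or split. TJP1 and CLDN16 differed less, by 0.72 and 0.24. With lists cut to equal length, CLDN12 remained higher without overlap and CLDN14, CGN, OCLN, TJP1 and CLDN16 did not. F11R (chr1:160965001-160991133) had 0 and 566, 1614 and 382, and 0 and 1236 bp of H3K27ac. JUP had 361 and 647, 1472 and 401, and 0 and 1421 bp. CLDN1 had 0 and 470, 1548 and 167, and 0 and 1357 bp. At F11R, JUP and CLDN1 the groups overlapped because siControl+TGFβ replicate 2 lay below siControl replicate 2. MARVELD2 had 0 and 364, 924 and 183, and 0 and 457 bp, and PATJ 383 and 514, 1096 and 221, and 0 and 1147 bp, with the same overlap.

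**Figure D4:**
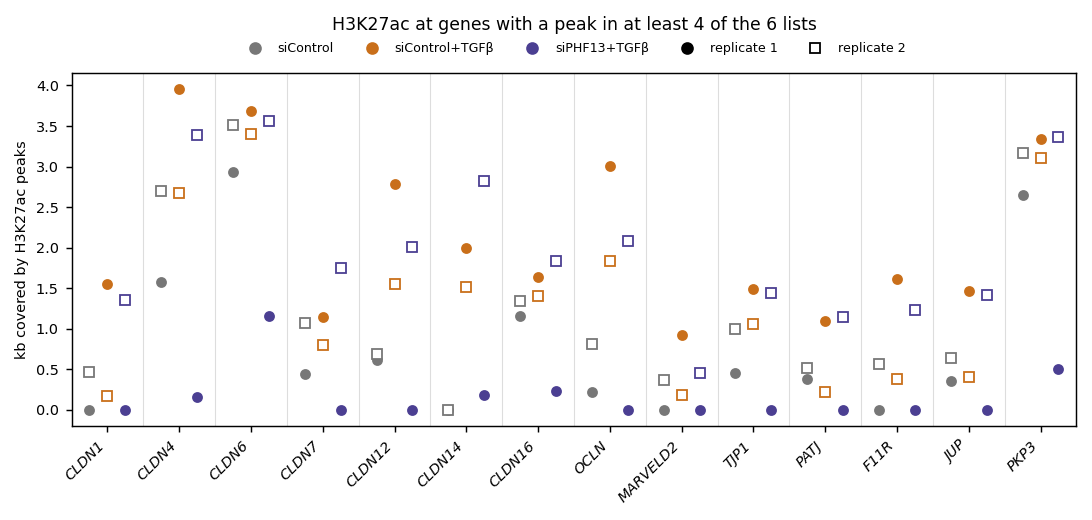
The kb covered by H3K27ac peaks is plotted for the 14 genes with a peak in at least 4 of 6 lists, by group (colour) and replicate (filled circle: 1, open square: 2). The filled siPHF13+TGFβ circle is at 0 for 9 of the 14 genes, and the open square of the same group lies above both siControl lists at all 14.

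H3K27me3 had 1 gene without overlap. DSC3 (desmocollin 3), of basal layers of stratified epithelium, had 972 and 1710 bp for siControl, 0 and 914 bp for siControl+TGFβ, and 470 and 937 bp for siPHF13+TGFβ, a difference of 1.66 on the log2 scale with siControl higher. The order did not hold with lists cut to equal length, with their stronger peaks alone or with a stricter q.

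The second comparison set siPHF13+TGFβ against siControl+TGFβ, to ask what PHF13 depletion changed under TGFβ, and it shares the siControl+TGFβ lists with the first. H3K4me3 over the 37 genes summed to 36680 and 49409 bp in siPHF13+TGFβ (43045 ± 9001, SD, n = 2), below both siControl+TGFβ lists, with a log2 ratio of means of -0.34 (-0.26 for all windows) and of -0.14 without replicate 1. Of the 30 genes compared, 17 were lower without overlap and 0 higher, beside 61.7% and 0.292% of all windows. After centring 7 were lower and 4 higher, beside 18.3% and 18.8%. limma called 0 of the 30, with 6 windows of 15398 lower (0.039%). An unadjusted p under 0.05 was found at 6 of the 30 and at 9.37% of windows. Centring takes out a shift of the median of all windows of -0.20, against a median of -0.27 for the 30 genes before centring. Without siPHF13+TGFβ replicate 1, 17 genes were lower and 3 higher, beside 63.1% and 10.4%, and the number lower was 29 without replicate 2 and 26 without siControl+TGFβ replicate 2, beside 94.7% and 82.8%.

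Among the genes without overlap, the differences at CLDN14 (-1.65, limma adjusted p = 0.0569), CLDN15 (-0.67), CLDN6 (-0.55) and CLDN1 (-0.52) were the largest. TJP3 (-1.37) and CLDN5 (-1.17) differed by more than the last 3 of these, but their groups overlapped. CLDN14 again passed only with a pseudocount of 50 bp (adjusted p = 0.00722). It was tested only because both siControl+TGFβ lists had a peak, so these p values are no support for a difference. The CLDN15 difference again lay at the edge of the window and was gone in windows of 2.5 and 1 kb. CLDN6 had H3K4me3 over 1815 and 2914, 3581 and 2881, and 1766 and 2557 bp, and its groups overlapped when only peaks nearest to its own start sites were counted. OCLN had 3242 and 2958 bp for siControl, 3664 and 3168 bp for siControl+TGFβ, and 1965 and 2856 bp for siPHF13+TGFβ, a difference of -0.49 from siControl+TGFβ. Both siPHF13+TGFβ values of OCLN were below the 4 others. The intronic start site of OCLN at position 68800004 had 746, 679, 1104, 817, 0 and 723 bp of this. OCLN and JUP (-0.45) were lower without overlap under all 9 other settings. At TJP1, with 2938 and 3970, 4393 and 3956, and 2731 and 4075 bp, and at PATJ the groups overlapped.

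For H3K27ac the siPHF13+TGFβ lists summed to 2237 and 28344 bp (15291 ± 18460, SD, n = 2), one below and one inside the range of the siControl+TGFβ lists. The log2 ratio of means was -0.74 (-0.74 for all windows), and 0.15 without replicate 1. Of 17 genes, 1 was lower without overlap and 0 higher, beside 10.5% and 0.016% of windows. The 1 gene was CGN (-2.02), called in neither siPHF13+TGFβ list. It met the filter only through its peaks in the siControl+TGFβ lists, so its lack of overlap followed from the filter and is no support for a difference. Without replicate 1, 5 genes were higher and 1 lower, beside 29.2% and 10.5%. limma called 0 of the 17 (0% of windows), and 0 had an unadjusted p under 0.05, beside 0.12% of windows. Without replicate 2, which leaves the short list alone and takes its spread from the other groups, 10 of the 17 were called lower, beside 76.6% of windows. H3K27me3 summed to 17680 and 67227 bp (42454 ± 35035, SD, n = 2), a log2 ratio of -0.48 (-0.59 for all windows) and of 0.19 without replicate 1. Of 16 genes, 2 were lower without overlap and 0 higher, beside 29.5% and 1.22% of windows. These were DSG2 (-2.10), given above, and CLDN11 (-1.51), a claudin of myelin and testis, with 0 and 1990, 577 and 216, and 0 and 0 bp. Without replicate 1, 2 were lower and 5 higher, beside 30% and 30.2%. The order at DSG2 was lost in lists cut to equal length and that at CLDN11 when only peaks nearest to its own start sites were counted. limma called 0 of the 16 (0% of windows), with 0 at an unadjusted p under 0.05, beside 1.73% of windows.

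The third comparison set siPHF13+TGFβ against siControl and shares lists with both others. For H3K4me3 the log2 ratio of the sums was -0.12 (-0.10 for all windows), and its sign turned without siPHF13+TGFβ replicate 1 (0.08) or without siControl replicate 2 (0.0048). Of 30 genes, 6 were lower without overlap and 0 higher, beside 20.2% and 1.89% of windows. After centring 3 were lower and 4 higher, beside 10.8% and 11.2%. Without replicate 1, 6 were lower and 11 higher, beside 21.8% and 31.9%. The 6 were OCLN (-0.36), MARVELD2 (-0.25), F11R (-0.21), CLDN12 (-0.13), PKP3 and PKP2. F11R had 2023 and 2126, 2104 and 2005, and 1722 and 1811 bp, with both siPHF13+TGFβ values below the 4 others. MARVELD2, the tricellulin gene, had 1571 and 1331, 1278 and 1375, and 1125 and 1245 bp. CLDN12 had 1743 and 1673, 1837 and 1822, and 1571 and 1505 bp. In this group of genes siPHF13+TGFβ was the lowest of the 3 groups. OCLN and F11R were lower without overlap under all 9 other settings.

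For H3K27ac, 1 of 17 genes was higher without overlap and 0 lower in siPHF13+TGFβ than in siControl, beside 0.0641% and 0.232% of windows. That gene was CLDN14 (2.44 on the log2(bp + 200) scale), at 190 and 2826 bp against 0 and 0 bp. Its own difference was lost with windows of 1 kb, with 1 start site per gene and with stronger peaks alone. Without replicate 1, 16 of 17 were higher, beside 94.7% of windows. For H3K27me3, 1 of 16 was lower (DSC3, -0.78) and 0 higher, beside 12.8% and 0.303% of windows, and without replicate 1, 1 was lower and 4 higher, beside 13.3% and 13.7%. limma called 0 of the genes and 0% of windows for each mark in this comparison. The number with an unadjusted p under 0.05 was 0 for H3K4me3, 1 for H3K27ac and 0 for H3K27me3. The shares of all windows were 1.36%, 0.00801% and 2.57%.

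**Figure D5:**
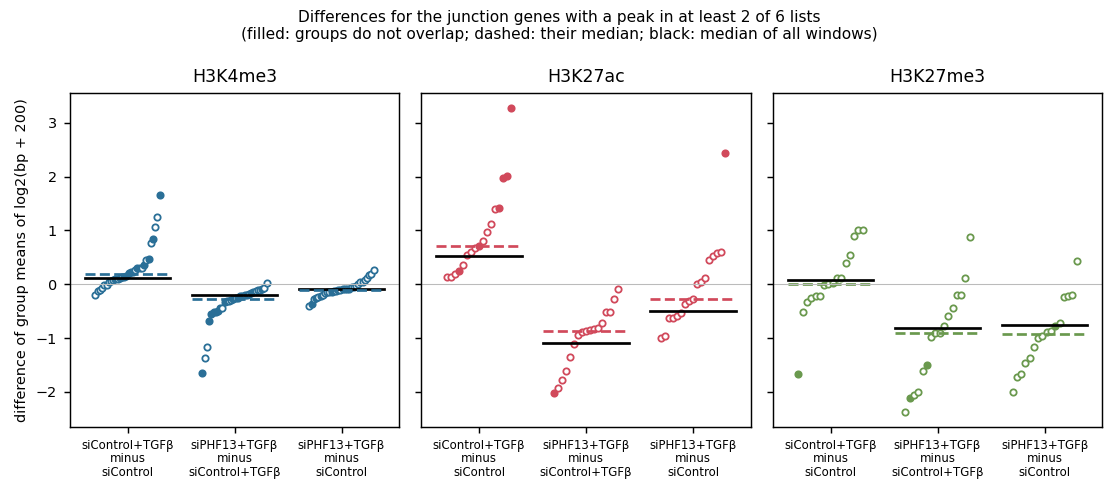
Each point is a gene with a peak in at least 2 of 6 lists, placed at its difference of group means of log2(bp + 200), for the 3 marks and the 3 comparisons. Filled points are genes whose groups do not overlap, the dashed line is the median of the genes and the black line the median of all windows. The medians of the genes and of all windows were 0.18 and 0.12 for H3K4me3 with TGFβ. They lay further apart for H3K27ac, at 0.72 and 0.53 with TGFβ and at -0.28 and -0.50 for siPHF13+TGFβ against siControl, and these gaps were not tested.

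Within the 37 genes, H3K4me3 was steadier between lists than the other marks. Its highest value was 1.23 times its lowest at F11R and 1.25 times at DSP, while it was 4.06 times at CLDN15 and 4.63 times at CLDN16, where no peak lay over a start site of the gene. For H3K27ac, among the 4 genes with a peak in all 6 lists, the ratio was 3.20 at CLDN6, 6.70 at PKP3 and 7.88 at CLDN16 and higher at CLDN4, with siPHF13+TGFβ replicate 1 the lowest list in each. For H3K27me3, DSP (1.52) and PKP2 (1.94) varied least and CLDN14 (214) most among the 8 genes with a peak in all 6 lists. H3K4me3 lay over a start site of the gene itself in at least 1 list at 25 of the 30 genes that had a peak, the others being CLDN5, CLDN14, CLDN15, CLDN16 and CRB3.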

How the data were processed

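ChIP-seq of H3K4me3, H3K27ac and H3K27me3 gave 18 peak lists, and the 6 inputs were not used as lists. Per the submitters' notes and the study's methods, the authors trimmed reads with Trim Galore 0.4.1, aligned them to hg19 with Bowtie2 2.4.1, removed duplicates with Picard and called peaks per sample with MACS2 2.2.7.1. The deposited columns are a score, a fold enrichment over input (a ratio), and the p and q values as −log10, and the lowest −log10 q was 1.30 in the H3K4me3 and H3K27ac lists, looser than the 3 that the study's methods set for them, and 1.00 for H3K27me3. A setting with −log10 q of at least 3 was tried. The study's table of peak numbers gives longer lists than the files used here for siPHF13+TGFβ replicate 1 of each mark and for siControl replicate 1 of H3K27me3. Peak positions, −log10 q and fold were used here.

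Windows were the bases within 5 kb of the TSSs of each protein-coding gene in GENCODE 44 lifted to GRCh37 (NumPy 2.4.6, Python 3.11.15). No peak passed the end of a GRCh37 chromosome. Windows of the 37 genes spanned 10001 to 46458 bp, so covered bp are compared between lists, not as levels between genes. log2(bp + 200) of windows with a peak in at least 2 of 6 lists was fitted with limma 3.58.1 (R 4.3.3) over the 6 lists of a mark, with Benjamini-Hochberg adjustment over all windows. The main design had no replicate block. Sums were compared as the log2 ratio of group means. The scripts were tested on simulated data. Values in every list are given, for the marks described, for 12 core genes of simple epithelia and for the 4 genes with the widest H3K27me3. They are also given for up to 4 genes per mark and comparison with the largest differences among those whose groups do not overlap. Other genes with values were named to describe a count. The genes, lists and tests were chosen with earlier results of these data known.

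Settings tried were other windows, start sites, pseudocounts (50 and 1000 bp), filters, equal list lengths, centring, a replicate block and leaving out each list. Counting peaks by the nearest start site, averaging log2 values and a crossed block were chosen after seeing the data. Some items measured with the others are not reported here.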

Additional observations from a re-analysis of the deposited data

How the results depend on the processing

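Between settings, the log2 ratio of the sums over the 37 genes moved by more than the spread between replicates in 7 cases. Of these, 6 came from leaving out 1 list. With each list left out in turn, the H3K4me3 ratio of siPHF13+TGFβ to siControl+TGFβ ran from -0.57 to -0.14, the H3K27ac ratio from -3.51 to 0.15 against siControl+TGFβ and from -2.63 to 1.03 against siControl, and the H3K27me3 ratio from -0.48 to 0.73 for siControl+TGFβ against siControl, from -1.74 to 0.19 for siPHF13+TGFβ against siControl+TGFβ and from -1.74 to 0.25 against siControl. All low ends but that of the TGFβ comparison were reached without siPHF13+TGFβ replicate 2, which leaves the short list alone. The seventh was the H3K27ac ratio with TGFβ, 0.19 at equal list length, where fewer and stronger peaks are compared. limma called 6 of all H3K4me3 windows in the TGFβ comparison and 6 in the depletion comparison. The counts were 26 and 30 with a pseudocount of 50 bp and 0 and 0 with a pseudocount of 1000 bp, with a peak required in all 6 lists, with centred lists, with only the 4 lists compared, and, over leaving out each list, from 0 to 0. With the replicate number as a block they were 0 and 0, and with the numbers of siControl+TGFβ crossed also 0 and 0. Same-numbered lists did not deviate together in every pair (r from -0.41 to 0.53 over windows). With 2 lists per group these values cannot decide whether lists were paired, and the main design assumed no pairing. For H3K27ac, leaving out each list gave 0 to 9562 windows in the depletion comparison and 0 to 6643 against siControl, the high ends without siPHF13+TGFβ replicate 2. Of the 37 genes, CLDN14 alone was called for H3K4me3, with the pseudocount of 50 bp, and it met the filter only through the siControl+TGFβ lists. The cause of these shifts was not tested. The peak files hold no read depth, so a gene without a peak cannot be told from one whose signal missed the caller's threshold, and differences within the spread of 2 lists per group were not detectable.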

Other observations

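A list of 29 further junction genes (other claudins, JAM family members, polarity proteins, PKP4 and PERP among them) was measured in the same way. H3K4me3 was present in all 6 lists at 20 of them and absent at 8, and H3K27ac and H3K27me3 were present in 4 or more lists at 14 and 10. LSR and PRKCZ had both of the latter marks in 4 or more lists. The polarity kinase PRKCI had H3K27ac over 918 and 1300 bp for siControl, 1435 and 1143 bp for siControl+TGFβ, and 171 and 1203 bp for siPHF13+TGFβ, with H3K4me3 in all 6 lists and no H3K27me3. PALS1, a scaffold partner of PATJ and CRB3, had 834 and 1513, 2317 and 1969, and 167 and 2099 bp of H3K27ac. CGNL1 (paracingulin) had H3K27me3 over 4536 and 7441, 8693 and 7058, and 1161 and 9582 bp, with H3K4me3 in all 6 lists and no H3K27ac. JAM2 and ILDR2 had the same combination as CGNL1. CLDN2, the pore-forming claudin of leaky epithelia, had H3K4me3 in 4 lists, H3K27ac in 3 and H3K27me3 in 5. These genes were named for their marks after their values were seen.

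Between groups, 21 of the 29 had a peak in at least 2 lists for H3K4me3, and of these 7 were higher and 1 lower without overlap in siControl+TGFβ than in siControl, beside 47.3% and 2.1% of all windows, and 10 were lower and 0 higher in siPHF13+TGFβ than in siControl+TGFβ, beside 61.7% and 0.292%. For H3K27ac, 8 of 17 compared were higher and 0 lower with TGFβ, beside 55.7% and 0.0561%. limma called 0 of the 29 for any mark in the 3 comparisons, beside 0.039% of H3K4me3 windows in the first and in the second comparison and 0% otherwise.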
